A study of Homo sapiens with 2 samples.

Results

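Neural crest and stem-like melanoma markers were examined on 2 arrays labelled A375SM, a metastatic derivative of A375 human melanoma cells. The group holds 10 genes, SOX2, SOX4, SOX5, SOX9, NES, NGFR, PROM1, ALDH1A1, ALDH1A3 and KDM5B, of the 19775 genes with a probe set of their own. Every probe set whose array annotation names only such a gene was taken, which gave 28 of 54675 probe sets. Each probe set combines several short probes to the same transcript or stretch of it. The PAR-1 array carries the label of cells stably transduced with a lentiviral short hairpin (shRNA) to PAR-1, a receptor for thrombin and the product of F2R. The control array carries the label of that line with a non-targeting (NT) shRNA, also delivered by lentivirus. With 1 array per condition there was no replicate, no test between conditions and no p-value, and precision is limited by that number of arrays. Both RNAs came from bulk cultures, in which fewer cells expressing a gene and less RNA per cell cannot be told apart.

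Melanocytes arise from the neural crest, a migratory embryonic cell population that also gives rise to glia and peripheral neurons. Transcription factors of the SOX family act at several steps of that lineage, each binding DNA through a conserved HMG box. Melanoma cells can lose melanocytic traits and express genes of the neural crest. Some genes on the list, such as PROM1, NGFR, KDM5B and the aldehyde dehydrogenases, have been used to mark melanoma cells with stem-like or slow-cycling behaviour.

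All 8 markers that could be measured read lower on the PAR-1 array than on the control array, and 2 of them by at least 2-fold. These were the neural stem cell filament protein NES (2.86-fold lower) and the membrane glycoprotein PROM1 (2.33-fold lower). SOX5 lay just inside 2-fold (1.89-fold lower), and 0 markers were at least 2-fold higher. Over all 13233 genes measured the same way, 5.63% were at least 2-fold lower, 8.59% at least 2-fold higher, and 50.2% had a log2 difference below 0. The median log2 difference (PAR-1 shRNA minus NT) was -0.64 for the 8 markers and -0.0022 for all genes. NGFR and SOX2 did not exceed the floor, which is each array's median intensity, 43.8 on the PAR-1 array and 45.9 on the control array. Values under the floor were set to it, and each gene is represented by its brightest probe set. For each of the 8 measured markers this probe set exceeded the floor on both arrays.

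**Figure D1:**
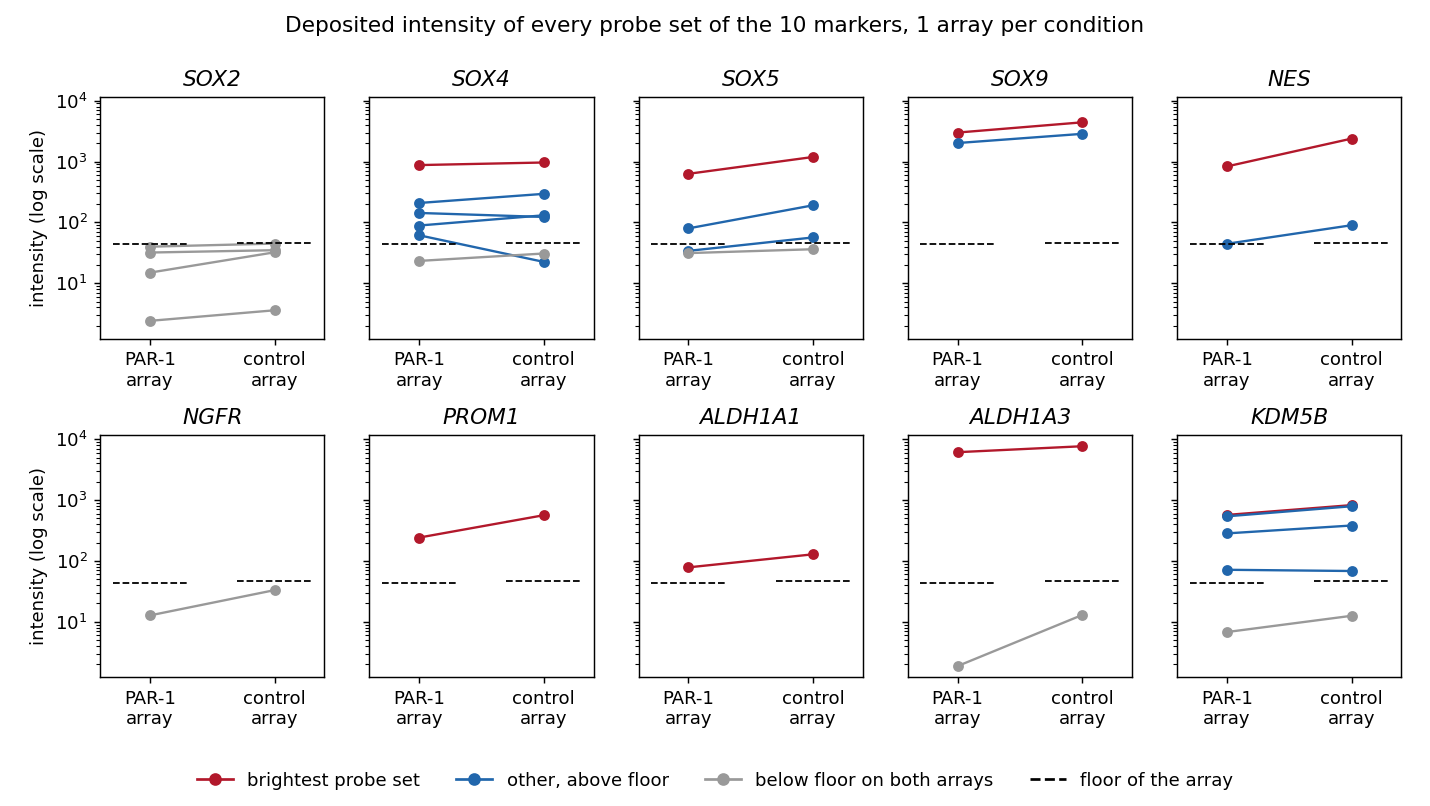
Deposited intensity (log scale) of all 28 probe sets on the PAR-1 array (left points) and on the control array (right points). Each line joins the values of 1 probe set, dashed lines mark the floors of 43.8 and 45.9, and all probe sets of SOX2 and NGFR lie below them.

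The arrays themselves limit what these values can say. Of the targeted gene F2R, the brighter probe set read 956 on the PAR-1 array and 1666 on the control array (log2 difference -0.80), whereas the dimmer one read 225 and 94.4 in the same order (1.26). The targeted gene therefore does not settle the labels, and PAR-1 array and control array mean the arrays so labelled. All 11 measured Y-chromosome genes differed in 1 direction, at least 2-fold higher on the PAR-1 array, although both labels give 1 line. Whether both arrays hold RNA of the same line, and whether each holds RNA of the line its label names, was not tested. The shRNA and any other difference between the arrays cannot be told apart here. The log2 intensities of the 24239 probe sets that exceeded both floors correlated at 0.93 (Pearson) and 0.91 (Spearman), which describes probe sets and not replicates. Within genes, the log2 differences of probe sets varied with a pooled SD of 0.46, a spread that says nothing about cultures.

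Both arrays carried melanoma lineage genes. Of 12 such genes 11 had a probe set of their own and 9 were above the floor, with TYRP1 and GPR143 below it on both arrays. SOX10, the neural crest and melanocyte transcription factor, read 1162 on the PAR-1 array and 1434 on the control array by its brighter probe set. Its other one read 38.8, below the floor, and 148 on these arrays, at least 3.38-fold lower. Of the genes of melanocytic differentiation, MLANA read 120 on the PAR-1 array and 1038 on the control array, 8.66-fold lower. The pigment enzyme TYR read 63.8 and 255 on these arrays, also at least 2-fold lower. The melanosome protein PMEL read 30.8, below the floor, on the PAR-1 array and 152 on the control array, at least 3.46-fold lower. The calcium-binding protein S100B read 1445 and 3857 on the same arrays. The summed intensity of the 11 lineage genes was 5923 on the PAR-1 array and 13163 on the control array. Of the 9 above the floor 6 were lower by 2-fold or more and 0 higher by as much, with a median log2 difference of -1.27. Of the 9, 8 were below 0, among them RAB27A at -0.02, with other probe sets up to 0.62. SLC45A2 went the other way, with 71.9 on the PAR-1 array and 43.1, below the floor, on the control array. Most measured lineage genes thus differed in the same direction as the 8 markers, and their part in the marker values was not tested. Of markers of other cell types, 4 of 10 leukocyte genes (summed intensity 4501 and 6170, mostly HLA-DRA, which melanoma cells can also express), 2 of 7 keratinocyte genes (2821 and 2952) and 1 of 7 endothelial genes (133 and 93.1) were above the floor, with each first sum from the PAR-1 array. The keratinocyte sums were mostly KRT10, which read 2707 on the PAR-1 array and 2903 on the control array. The leukocyte marker PTPRC, the keratinocyte markers KRT5 and KRT14 and the endothelial markers VWF and CDH5 were below the floor on both arrays. Of 8 fibroblast genes 6 were above the floor, with summed intensities of 1207 on the PAR-1 array and 2045 on the control array. Of these 6, 4 were below 0. COL1A1 and COL1A2 were at least 2-fold lower, with a further COL1A2 probe set at -0.41. PDGFRA (0.61) and DCN (0.24) were above 0 by their brightest probe sets. Of 8 neuron or glia genes 4 were above the floor (4387 on the PAR-1 array and 2604 on the control array). Most of these sums came from TUBB3, which read 3871 and 2312 on the same arrays. The sums include the brightest probe sets of listed genes below the floor. The endothelial sums therefore exceed the 77.3 and 45.8 of PECAM1, the only endothelial gene above the floor. PECAM1 passed it on the PAR-1 array only, since these counts take genes that exceeded the floor on 1 array or more. What these other cell type markers contribute to the marker values was not tested.

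NES encodes nestin, an intermediate filament protein of neural stem and progenitor cells. Its brighter probe set, 218678_at, read 831 on the PAR-1 array and 2380 on the control array, which is 34.9% of the control level (log2 difference -1.52). The dimmer one, 229346_at, read 44.5 and 89.8 on the same arrays, a log2 difference of -1.01. Its value on the PAR-1 array stood just above that array's floor. Both probe sets of NES were thus at least 2-fold lower, as for 97 (1.48%) of the 6555 genes read by 2 or more measured probe sets. Ranked from the lowest difference, NES stood at place 187 of 13233 genes.

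PROM1 encodes prominin-1 or CD133, a glycoprotein of plasma membrane protrusions that serves as a surface marker of several stem cell types. Its only probe set, 204304_s_at, read 242 on the PAR-1 array and 564 on the control array, 42.9% of the control level and a log2 difference of -1.22. It stood at place 425 from the lowest. No other probe set of PROM1 was available to check this value, and the suffix _s_at marks probes shared by several transcripts.

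SOX5 encodes a SOX protein without a transactivation domain of its own, which in mouse melanocytes modulates the action of SOX10. Its brightest probe set, 238009_at, read 629 on the PAR-1 array and 1189 on the control array (log2 difference -0.92). A dimmer one, 207336_at, read 79.7 and 191 on these arrays and passed 2-fold with -1.26. The probe set 1569638_at was below the floor at 34.0 on the PAR-1 array and read 56.6 on the control array, at least 1.29-fold lower. The last one, 238285_at, was below the floor on both arrays at 31.3 and 36.2. All 3 measured probe sets of SOX5 thus pointed the same way, with differences of unequal size.

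The 3 markers with the lowest values are shown with the 250 bases before their transcription start, as listed by RefSeq (GRCh38.p14), so that their promoters can be compared letter by letter. The windows of NES (chr1:156677408-156677657), PROM1 (chr4:16084024-16084273) and SOX5 (chr12:24562492-24562741) all lie on the minus strand and are written 5′ to 3′ along the gene. PROM1 has 4 listed starts, and the most upstream one is shown. Capitals mark matches to any of 8 motifs searched on both strands: ACAAAG and AACAAT (SOX factors), TGACGTCA (CREB), GCCNNNGGC (AP-2), CACGTG (MITF and related factors), GGGCGG (SP1), CCAAT (NF-Y) and TATAAA (TBP).
NES: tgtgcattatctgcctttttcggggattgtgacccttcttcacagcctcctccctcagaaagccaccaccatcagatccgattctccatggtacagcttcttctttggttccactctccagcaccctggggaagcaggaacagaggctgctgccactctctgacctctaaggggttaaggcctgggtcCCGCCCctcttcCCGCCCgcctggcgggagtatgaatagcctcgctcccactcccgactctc
PROM1: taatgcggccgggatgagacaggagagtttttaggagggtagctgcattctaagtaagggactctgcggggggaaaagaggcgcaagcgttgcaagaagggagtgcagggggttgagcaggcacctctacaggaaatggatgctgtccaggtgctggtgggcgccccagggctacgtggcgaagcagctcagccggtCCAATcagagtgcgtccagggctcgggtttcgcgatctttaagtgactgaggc
SOX5: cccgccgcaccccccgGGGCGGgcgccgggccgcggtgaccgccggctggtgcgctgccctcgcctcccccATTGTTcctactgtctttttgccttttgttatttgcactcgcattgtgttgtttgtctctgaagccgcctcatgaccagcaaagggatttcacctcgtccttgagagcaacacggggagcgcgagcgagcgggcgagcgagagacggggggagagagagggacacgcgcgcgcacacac

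The NES window held GGGCGG on the reverse strand at 62 and 50 bases before the start, a motif present in 42.6% of all 35116 promoter windows of this length. The PROM1 window held CCAAT at 53 bases before the start, as did 32.0% of all windows somewhere in their length. The SOX5 window held GGGCGG at 234 bases and, on the reverse strand, AACAAT at 179 bases before the start, a motif present in 8.98% of all windows. None of the 8 motifs was found in all 3 windows. In all, 8 of the 10 markers had a listed window, 11 windows with the 4 of PROM1. The windows of SOX2 and ALDH1A1 held ACAAAG (13.7% of all windows), and 0 of the 11 held TGACGTCA, CACGTG or TATAAA. A match is a description of letters and not a binding site.

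SOX9 encodes a transcription factor of the neural crest and its derivatives. Its probe set 202935_s_at read 2994 on the PAR-1 array and 4409 on the control array, a log2 difference of -0.56. The other one, 202936_s_at, read 2015 and 2852 on these arrays, a log2 difference of -0.50. The probe sets of SOX9 differed from each other by far less than the pooled SD of 0.46, and both were within 2-fold.

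SOX4 encodes an HMG box factor of progenitor cells. Its 6 probe sets did not point one way. The brightest, 201417_at, read 875 on the PAR-1 array and 964 on the control array (log2 difference -0.14). Of the others above the floor, 201416_at read 208 and 294 (-0.50), and 1567906_at read 88.8 and 131 (-0.56). On the same arrays 201418_s_at read 143 and 123 (0.22), and 213668_s_at read 61.4 and 22.4, below the floor, at least 1.34-fold higher. The mean over these 5 was -0.11, so SOX4 showed no direction beyond the spread between its probe sets. The sixth did not exceed either floor.

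SOX2 encodes a factor of pluripotent and neural progenitor cells. Its 4 probe sets were below the floor on both arrays. The brightest, 228038_at, came closest, with 39.9 on the PAR-1 array and 44.8 on the control array. The others reached at most 32.0 and 34.9 on these arrays. No fold is given for SOX2, and these values set only an upper bound on its signal.

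NGFR encodes the p75 neurotrophin receptor CD271, a cell surface marker of neural crest cells. Its only probe set, 205858_at, read 12.7 on the PAR-1 array and 33.1 on the control array, below the floor on both. With a lower floor, at the 25th percentile of each array, both values counted as signal and the log2 difference was -1.38. NGFR thus has a direction only at intensities that carry little information.

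**Figure D2:**
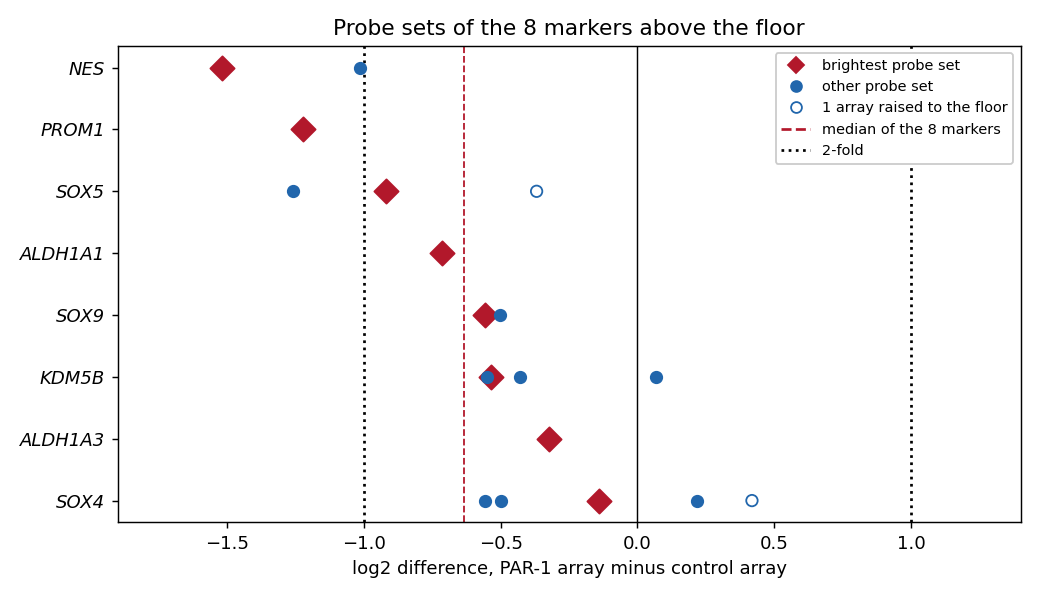
Log2 difference between the PAR-1 array and the control array for the 19 probe sets above the floor, by gene, with red diamonds for the brightest probe set and open circles where 1 array was raised to the floor. Points left of the dotted line at -1 are at least 2-fold lower and belong to NES, PROM1 and SOX5, and the 3 points right of 0 belong to SOX4 and KDM5B.

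The aldehyde dehydrogenases of the list oxidise retinaldehyde to retinoic acid, and their enzyme activity is widely used to sort stem-like cells. ALDH1A1, read by 212224_at, had 78.3 on the PAR-1 array and 128 on the control array, a log2 difference of -0.71. The main probe set of ALDH1A3, 203180_at, read 6120 on the PAR-1 array and 7665 on the control array, a log2 difference of -0.32. A second one, 1558649_at, was far below the floor on both arrays at 1.87 and 12.9. Both genes were lower by less than 2-fold, ALDH1A1 by more than the pooled SD between probe sets and ALDH1A3 by less.

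KDM5B, also called JARID1B, removes methyl groups from lysine 4 of histone H3 and has been used to mark slow-cycling melanoma cells. Its probe set 211202_s_at read 570 on the PAR-1 array and 826 on the control array (log2 difference -0.53). The probe sets 201549_x_at, with 540 and 791 (-0.55), and 201548_s_at, with 283 and 382 (-0.43), pointed the same way. The probe set 235285_at read 71.5 on the PAR-1 array and 68.3 on the control array (0.07), and 201547_at was below the floor on both. The probe sets of KDM5B with an _s_at or _x_at suffix, which can match several transcripts, were thus lower on the PAR-1 array, and the value of KDM5B without them is 0.07.

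Across the markers, 16 of the 19 probe sets above the floor had a log2 difference below 0 and 3 above 0, where 49.8% of the 25017 probe sets of all measured genes were below 0. Of the 19, 4 were lower by 2-fold or more and 0 higher by as much. Among the 5 markers with several measured probe sets, all of these were below 0 for SOX5, SOX9 and NES, and not for SOX4 and KDM5B. Over all genes with 2 or more probe sets this held for 29.8%. The count of 8 markers on the same side of 0 rests on 1 pair of arrays, whose differences the markers share.

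**Figure D3:**
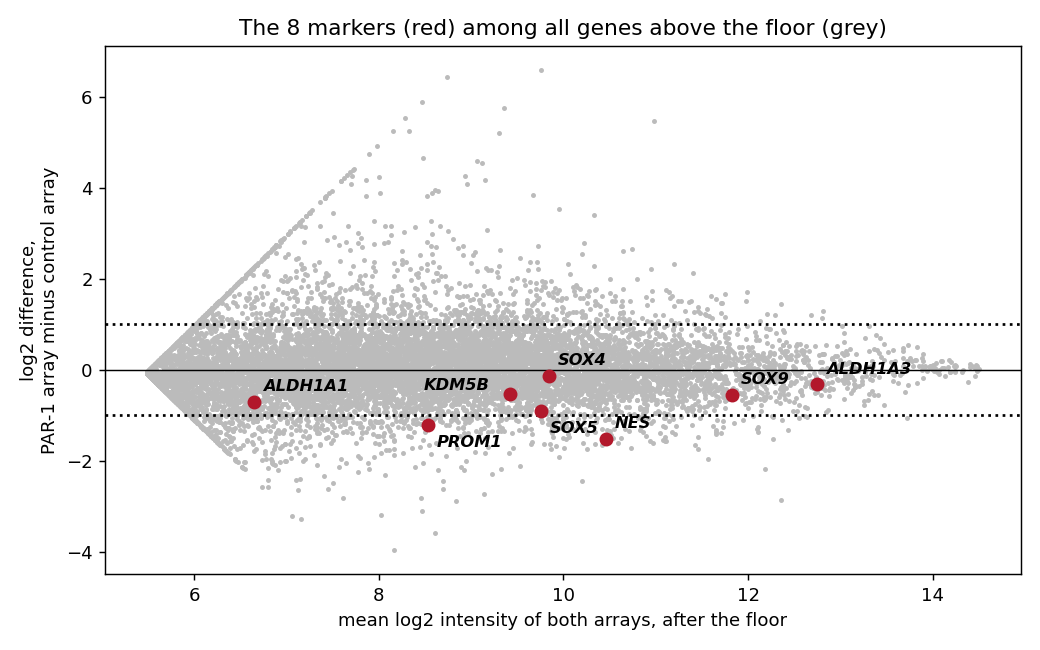
Log2 difference against the mean log2 intensity of both arrays for the 13233 genes above the floor (grey), with the 8 measured markers in red. All 8 lie below 0, NES and PROM1 lie below the dotted line at -1, and the slanted edges on the left come from values raised to the floor.

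Other genes of the same pathways were taken from lists by role. Among 15 neural crest specifiers, the transcription factors that set up the crest, 3 were lower by 2-fold or more, 1 higher by as much and 11 within 2-fold, with a median of -0.30. FOXD3, a repressor needed for crest progenitors, read 48.1 on the PAR-1 array and 125 on the control array, 2.60-fold lower, and came to -0.84 in log2 with log2(value + 50). MITF, the melanocyte master factor, was 2.40-fold lower and the crest and mesenchyme factor TWIST1 was 2.10-fold lower. ZIC1, a neural plate border factor, read 224 on the PAR-1 array and 94.3 on the control array, 2.38-fold higher. ZIC1 came to 0.21 in log2 when the floor was the 75th percentile.

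The list of genes of the neural crest stem and Schwann cell precursor state had a median of -0.82 over 11 genes above the floor. Of these 4 were lower by 2-fold or more, 0 higher by as much and 10 below 0. Among the 10, GFRA3 read 44.0 on the PAR-1 array and 28.9 on the control array. Its -0.06 arose only because the control value was raised to that array's floor, the higher of both floors. The adhesion molecule CDH19 read 324 on the PAR-1 array and 1050 on the control array, 3.24-fold lower, with its 3 probe sets between -1.87 and -1.47. EDNRB, the endothelin receptor of melanoblasts, read 1994 and 5165 on these arrays, 2.59-fold lower, with 3 probe sets between -1.56 and -1.12. S100B was 2.67-fold lower and, like MITF, is also counted among the lineage genes. The water channel AQP1 was 2.68-fold lower by its brightest probe set, but its other one was at -0.24. RXRG, a retinoid receptor also counted with the retinoic acid genes, was at -0.93 and the receptor ERBB3 at -0.72, both within 2-fold. GFRA2 and CDH6 were below the floor on both arrays.

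Of 15 other SOX genes 7 were above the floor, 1 higher by 2-fold or more, 0 lower by as much, with a median of -0.30. This median is the value of SOX10 by its brighter probe set, as is the median of the neural crest specifiers. SOX10 is counted in both lists and among the lineage genes, so these medians are not separate results. SOX7 read 833 on the PAR-1 array and 190 on the control array, 4.39-fold higher, while its other probe set was at 0.63 or higher in log2, with the control array below the floor. SOX6 and SOX8 had -0.95 and -0.89, within 2-fold. Of 12 other intermediate filament genes 6 were above the floor, with a median of -0.08. The neurofilament NEFL read 269 on the PAR-1 array and 1324 on the control array, 4.92-fold lower, with 3 probe sets between -2.30 and -1.32. The nuclear lamin LMNB1 was 3.17-fold higher. VIM, the filament partner of nestin, read 16401 on the PAR-1 array and 16251 on the control array. NES and NEFL were therefore at least 2-fold lower and VIM was not.

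The neurotrophin list held 8 genes above the floor of 17, with a median of -0.05. MAGED1, a binding partner of the p75 receptor, was 2.07-fold lower. BDNF, a neurotrophin, read 127 on the PAR-1 array and was below the floor on the control array at 26.1, at least 2.77-fold higher. Other stem-like melanoma markers differed both ways. Of 10 above the floor 4 were higher by 2-fold or more and 2 lower by as much, with a median of 0.27. This median came to 1.07 when the floor was the 75th percentile and to 0.01 as the mean of probe sets. Higher were the adhesion molecule ALCAM (6.56-fold, its log2 differences spanning 0.0062, a bound, to 3.38), ENG (3.34-fold), KLF4 (2.11-fold) and ITGA6 (2.10-fold). Lower were the transporter ABCB5 (at least 4.01-fold) and PROM2, the relative of PROM1 (2.52-fold). PROM2 had a further probe set at 0.22 or higher, below the floor on the control array. The epithelial and embryonic stem cell genes EPCAM, NANOG and LIN28B were below the floor on both arrays.

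Of 17 other aldehyde dehydrogenase genes 12 were above the floor, 3 lower by 2-fold or more and 0 higher by as much, with a median of -0.12 that turned to 0.35 without _s_at and _x_at probe sets. ALDH1L2 was at least 3.93-fold lower by its brightest probe set and at -0.32 or lower by the other. ALDH5A1 was 3.31-fold lower and ALDH1L1 at least 2.14-fold lower. All 3 stood close to or below the floor on the PAR-1 array, where they read between 27.4 and 44.2. The retinoic acid genes had a median of -0.41 over 15 above the floor of 21. The receptor RARA was 2.08-fold lower, with another probe set at 0.16. RXRA was 2.08-fold higher, and the retinoid-induced PLAAT4 at least 2.10-fold higher. Among the enzymes that degrade retinoic acid, CYP26A1 was at least 1.71-fold lower, with 31.5 on the PAR-1 array, below the floor, and 74.9 on the control array. CYP26B1 was at least 1.68-fold higher, with 77.2 on the PAR-1 array and 7.59, below the floor, on the control array, so neither value shows whether 2-fold was passed.

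All 19 listed genes of the histone demethylase families, a list without Y-chromosome genes, were above the floor, 3 lower by 2-fold or more and 1 higher by as much, with a median of -0.24. KDM7A (2.42-fold), KDM1B (2.22-fold) and KDM4C (2.11-fold) were lower and PHF2 was 2.05-fold higher. These calls ended under other settings, with log2 differences of -0.31 for KDM7A when the floor was the 75th percentile, -0.96 for KDM1B and -0.53 for KDM4C as the mean of probe sets, and 0.90 for PHF2 with log2(value + 50). The nearest relatives of KDM5B on this list, KDM5A and KDM5C, had -0.25 and 0.43 by their brightest probe sets. Their probe sets pointed both ways, from -0.25 to 0.78 for KDM5A and from -0.80 to 0.43 for KDM5C. Shares of 2-fold differences in these lists are to be set against the 5.63% lower and 8.59% higher over all genes. Lineage genes (6 of 9 at least 2-fold lower) and Y-chromosome genes (11 of 11 at least 2-fold higher) differed between the same arrays.

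**Figure D4:**
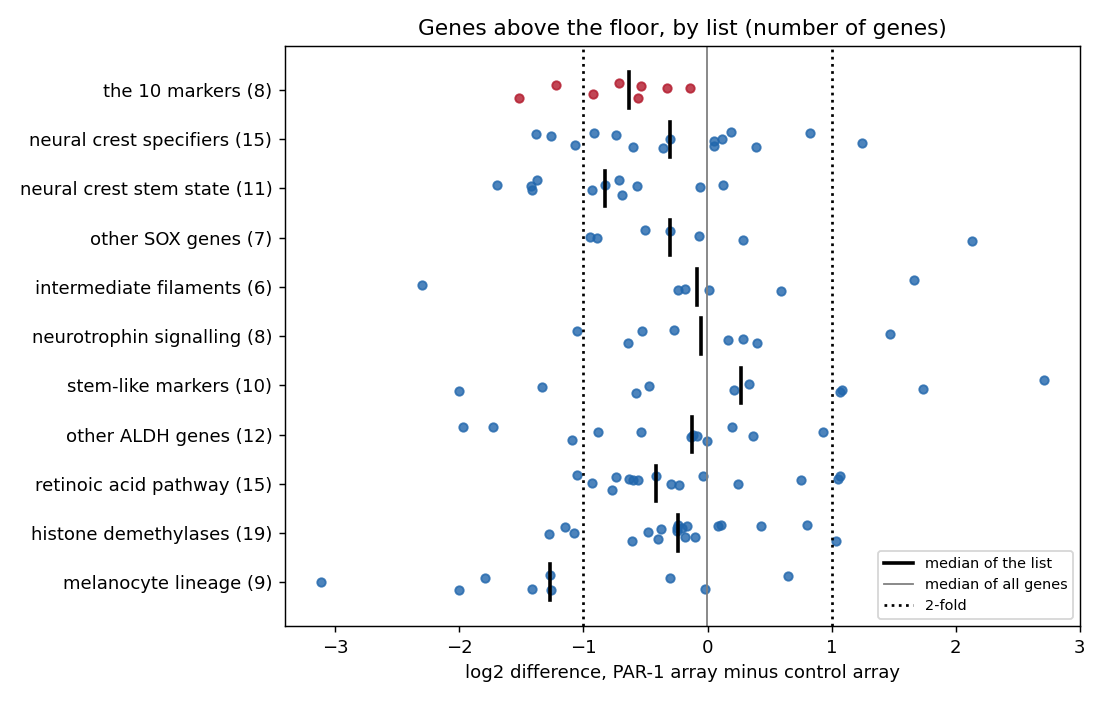
Log2 difference of each gene above the floor by list, with the number of genes in brackets, black bars for the list medians and a grey line for the median of all genes. The 10 markers (8 above the floor) have a median of -0.64, and the neural crest stem state list has one of -0.82.

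**Figure D5:**
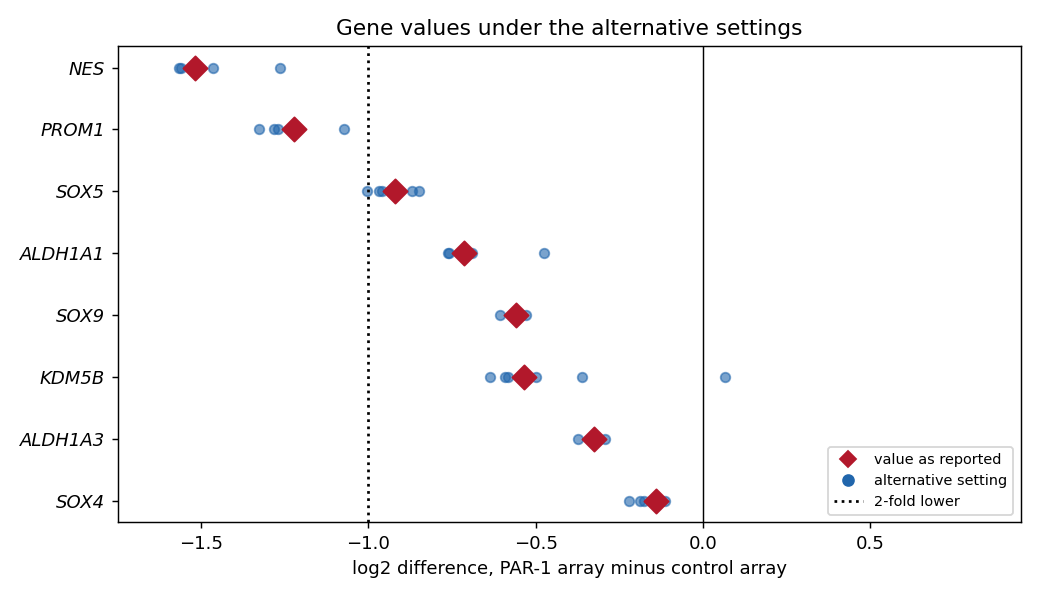
Gene values of the 8 measured markers as reported (red diamonds) and under up to 10 alternative settings (blue circles). NES and PROM1 stay left of the dotted 2-fold line at each setting that measures them, SOX5 reaches it at 1 setting, and KDM5B comes to 0.07 without _s_at and _x_at probe sets.

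Under 10 alternative settings of floor, scaling and probe set rule, the values of the 8 markers were below 0 in 76 of 77 cases, the exception being KDM5B without _s_at and _x_at probe sets. NES ran from -1.57 to -1.27, and PROM1, which that setting leaves out, ran from -1.33 to -1.07. SOX5 reached 2-fold with quantile normalisation alone, and its value nearest to 0 was -0.85. Many of the 77 cases had to repeat the main value or nearly so. A changed or absent floor returned it for every marker still measured, whose brightest probe set exceeded both floors. The mean of probe sets repeated it for PROM1, ALDH1A1 and ALDH1A3. Leaving out _s_at and _x_at probe sets repeated it for SOX4, SOX5, NES, ALDH1A1 and ALDH1A3. Median centring moved every value by -0.01 and equal trimmed means by -0.05. The count of 76 therefore says little about stability. The settings plot shows each value.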

How the data were processed

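Total RNA of 2 cultures given as A375SM was labelled with biotin and hybridised to Affymetrix arrays, per the labels' protocols. The deposited value of each probe set is a linear intensity. The authors' software, summary method and scaling target were not found in the labels or the file. Each array's mean after trimming 2% at each end was 221 (PAR-1 shRNA) and 213 (NT), a difference of 3.38%, so the deposited intensities were used unscaled. Detection calls were not used here. The array annotation named 1 gene for 41097 probe sets and several for 1801, and gene identifiers of RefSeq (GRCh38.p14) matched 41043 of the 41097 for current symbols. The 62 control probe sets were left out. Log2 differences were computed here after raising values to each array's median. A gene entered if a probe set exceeded the floor on 1 array or more, and its brightest probe set by mean log2 gave its value. With 1 array per group, differences of 2-fold or more were counted, without a test. Folds whose lower side was set to the floor are bounds, marked "at least". The named genes are the 10 markers, F2R and, from each list, up to 4 members past 2-fold in each direction, while others are named as context and were chosen after their values were seen. The members and lists were chosen with earlier results of these data known. The procedure was tested on simulated data with independent noise per probe set and changes placed in genes well above the floor. That test cannot speak to differences shared by a whole array or to signal near the floor. Python 3.11.15, pandas 2.3.3 and statsmodels 0.14.6 were used. Alternatives were 3 other floors (25th and 75th percentile, none), a pseudocount of 50, 4 scalings, 2 probe set rules and thresholds of 1.5-fold and 3-fold.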

Additional observations from a re-analysis of the deposited data

How the results depend on the processing

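Without _s_at and _x_at probe sets 1 marker was at least 2-fold lower, NES, because PROM1 then has no probe set. At 1.5-fold 4 markers were lower and at 3-fold 0. The median of the markers ran from -0.70 to -0.52 and moved by less than the pooled SD of 0.46 at each setting. Over all genes, 1926 were higher and 2211 lower when the floor was the 25th percentile, 605 and 312 when it was the 75th, 1314 lower without a floor, 493 lower with log2(value + 50), 2416 higher and 2102 lower at 1.5-fold, and 422 higher and 162 lower at 3-fold. Of 29 genes past 2-fold in the pathway lists, with 276 values in all, PROM2 changed direction, to 0.22 without _s_at and _x_at probe sets, and 21 values moved by more than the pooled SD. Calls of 2-fold also ended for ALDH1L1 (-0.89), PLAAT4 (0.61) and RARA (-0.71) with log2(value + 50), for AQP1 (-0.83), ITGA6 (0.90), KLF4 (0.98) and RXRA (0.86) as the mean of probe sets, and for PROM2 (-0.07) with the floor at the 75th percentile. Of the lineage and other cell type markers, only MITF and S100B, which are also in the pathway lists, were run under these alternatives. MITF ran from -1.38 to -1.24 and S100B from -1.46 to -1.39. For changes of floor, threshold or probe set the construction of the alternative shows the cause. No paired analysis was possible because each condition has 1 array, and no replicate could be left out. Signal near the floor limits SOX2, NGFR, ALDH1A1 and the dimmer NES probe set.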

Other observations

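Probe sets of 3 further genes disagreed widely, chosen after their values were seen. SOX10 had a second probe set, 209843_s_at, that read 38.8, below the floor, on the PAR-1 array and 148 on the control array, a log2 difference of -1.76 or lower, where the brighter one had -0.30. SOX15 was at -0.07 by its brightest probe set and at 2.19 or higher by its other one, which was below the floor on the control array. MBP, the myelin basic protein of glia, has 6 measured probe sets. The brightest read 378 on the PAR-1 array and was below the floor at 6.47 on the control array, at least 8.24-fold higher. The probe sets 1554544_a_at and 225407_at had log2 differences of about 2.57 or higher and 225408_at 0.64 or higher, all below the floor on the control array. The others were lower, 207323_s_at at -1.09 (49.3 on the PAR-1 array and 105 on the control array) and 209072_at at -0.72 or lower. Values of these genes from 1 probe set do not describe the gene as a whole.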
